A study of Mus musculus with 7 samples.

Results

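Meis1, Meis2, Tbx5, Tbx15, Pitx1, Zic1, Foxd1, Mab21l1 and Mab21l2 are 9 developmental regulators that mark position in the embryo, and their signal was followed across 7 arrays of mouse embryonic fibroblasts with a knockout of, a hairpin against, or intact tenascin-C, an extracellular matrix glycoprotein. The 9 genes, of 19937 with a probe set of a single gene symbol, were chosen by symbol as Meis cofactors, limb, trunk and craniofacial position factors, and Mab21 genes. That choice was made with their measured values on these arrays known, so their values are given as a description and without a test. Total RNA was hybridised after 2 days of culture in serum medium, 1 array per clone. The knockout group held 2 clones grown from tenascin-C (Tnc) knockout mice. The knockdown group held 2 clones of wild-type fibroblasts carrying, by stable transfection, a short hairpin RNA against Tnc. The wild-type group held 3 clones without a hairpin. All 7 cultures had immortalised spontaneously. Cells with a control hairpin were not analysed here, so an effect of transfection or of selection cannot be told apart from that of the hairpin. Whether the clones within a group derive from different animals is not stated, so every error and p-value describes the spread between these clones.

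Meis1 and Meis2 encode homeodomain proteins of the TALE class, which bind DNA together with Pbx and Hox proteins and sharpen the choice of Hox target sites. The other genes encode factors that act in particular regions, such as limb buds, dorsal trunk, face, eye or kidney stroma, or, for the Mab21 genes, proteins needed in the developing eye. Cultured fibroblasts are known to keep part of the Hox and regional expression pattern of the body site they came from. The site of origin of each clone is not given in the labels used here.

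The labels were checked on the targeted gene and on cell type markers. Tnc signal was 8.05 and 8.51 in the knockout clones, 7.34 and 6.52 in the knockdown clones, and 10.9 to 11.4 in the wild-type clones, on the log2 scale of all signals given here. The labels do not say which Tnc exons the knockout removed, so its probe signal is a limited check of that allele. Of 12 fibroblast markers, 11 lay above the median of the array on all 7 arrays, and Lum was the exception. The mean of the list was 10.90 to 10.91 in knockout, 11.13 to 11.25 in knockdown and 10.51 to 11.27 in wild-type clones. Knockout clone 2 stood apart in sex-linked genes: Xist, the RNA that coats the inactive X chromosome, was at 8.80 there and at 3.51 to 3.77 on the other 6 arrays. On that array 3 genes of the Y chromosome, Eif2s3y, Kdm5d and Uty, were at 3.77, 4.14 and 3.14, against 5.46, 4.86 and 4.98 in knockdown clone 2 and at least 6.06 on the other 5 arrays. The clones of the knockout group therefore differ in these sex-linked genes, and some results below are also given without knockout clone 2.

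Meis1, on chromosome 11, was read by 1 probe set, as was each of the other 8 genes, and its signal was 8.35 and 8.58 in the knockout clones, 9.05 and 8.84 in the knockdown clones, and 8.79, 9.26 and 8.92 in the wild-type clones. The knockout clones were the lower pair, and neither overlapped the wild-type or the knockdown clones. Group means were 8.47 ± 0.169 in knockout (SD, n = 2), 8.94 ± 0.146 in knockdown (SD, n = 2) and 8.99 ± 0.239 in wild-type cells (SD, n = 3), so knockout was -0.53 ± 0.163 (SE) from wild type, a 1.44-fold lower signal. Knockdown differed from wild type by -0.05 ± 0.163 (SE), within the spread of the clones, and knockout lay -0.48 ± 0.178 (SE) from knockdown.

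Meis2, on chromosome 2, also had its lowest signal in the knockout clones, with a wider gap. Its signal was 8.0044 and 7.78 in the knockout clones, 9.36 and 9.80 in the knockdown clones, and 9.26, 9.77 and 9.29 in the wild-type clones. Both knockout clones lay more than 1 log2 unit below every other array. Knockout was -1.55 ± 0.207 (SE) from wild type (2.92-fold lower) and -1.69 ± 0.227 (SE) from knockdown (3.22-fold lower), whereas knockdown was 0.14 ± 0.207 (SE) from wild type, with overlapping clones. In these bulk cultures, fewer cells expressing a gene and less RNA per cell cannot be told apart.

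The proximal promoters of the Meis genes are shown because these are the 2 TALE cofactors whose signal was lower together in the knockout clones. Each window runs from 250 bases before to 50 bases after the RefSeq start site on the gene's strand, 5′ to 3′, from RefSeq on assembly GRCm38.p6. Such windows were given for 5 of the 9 genes. Capitals mark matches to TGACAG, a motif of Meis proteins, or to TGATNNAT, a motif of Pbx and Hox pairs, searched on both strands.
Meis1 (chr11:19018920-19019219, minus strand): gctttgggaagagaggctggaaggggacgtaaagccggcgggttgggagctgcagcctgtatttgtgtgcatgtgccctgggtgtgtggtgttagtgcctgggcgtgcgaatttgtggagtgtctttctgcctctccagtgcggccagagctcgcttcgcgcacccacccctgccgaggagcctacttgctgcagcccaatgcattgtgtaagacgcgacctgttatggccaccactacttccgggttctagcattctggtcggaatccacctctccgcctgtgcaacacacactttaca
Meis2 (chr2:116064570-116064869, minus strand): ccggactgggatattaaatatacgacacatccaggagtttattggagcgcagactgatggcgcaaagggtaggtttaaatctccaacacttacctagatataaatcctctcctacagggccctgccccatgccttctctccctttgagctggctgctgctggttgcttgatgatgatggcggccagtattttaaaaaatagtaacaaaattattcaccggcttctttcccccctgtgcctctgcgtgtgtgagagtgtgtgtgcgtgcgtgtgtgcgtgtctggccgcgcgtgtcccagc
Neither window holds either motif, nor does that of Mab21l2, which says only that these letters are not in these windows. GC content was 58.3% for Meis1 and 51.0% for Meis2, beside a median of 52.7% over 32851 mouse windows of the same length. TGACAG occurs in 19.2% and TGATNNAT in 8.85% of those windows.

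**Figure D1:**
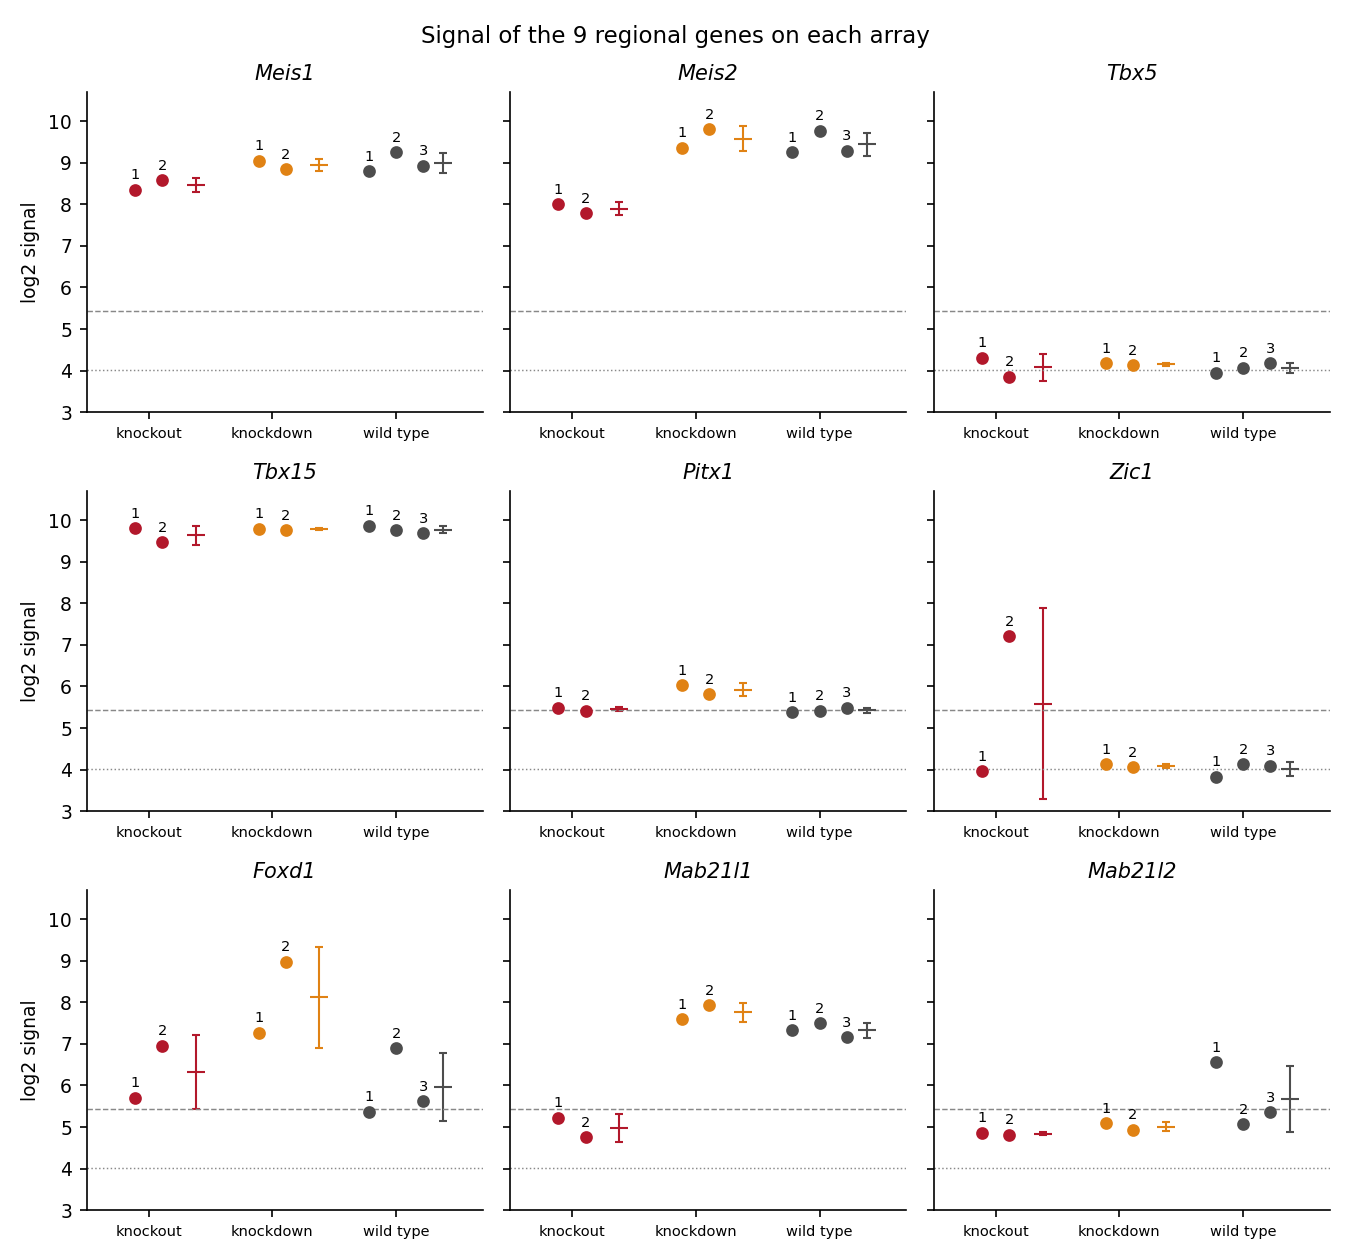
Log2 signal of each of the 9 genes (vertical axis) in knockout, knockdown and wild-type clones. Points are single arrays numbered by clone, crosses with bars are the group mean ± SD, and the dashed and dotted lines are the averages over arrays of the array median and 25th percentile. Meis1, Meis2, Mab21l1 and Mab21l2 have both knockout clones below every other array, Zic1 is high on 1 knockout array, and Foxd1 varies within every group.

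Tbx5, the T-box factor that starts forelimb outgrowth and acts in the heart, gave signal near the floor of the arrays. It was 4.31 and 3.85 in the knockout clones, 4.18 and 4.13 in the knockdown clones, and 3.94, 4.07 and 4.17 in the wild-type clones. The groups overlapped, no array reached its own median, and 5 of 7 lay above the array's 25th percentile. Knockout was 0.02 ± 0.148 (SE) and knockdown 0.09 ± 0.148 (SE) from wild type. No difference was detectable at this signal.

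Tbx15, a T-box factor of the skeleton and of dorsal skin pattern in the mouse, was far above the array median on every array. Its signal was 9.80 and 9.46 in the knockout clones, 9.79 and 9.76 in the knockdown clones, and 9.86, 9.76 and 9.69 in the wild-type clones. The 7 values spanned 0.401 log2 units, the knockout clones overlapped the other groups, and knockout was -0.14 ± 0.118 (SE) from wild type. Knockdown was 0.00679 ± 0.118 (SE) from wild type.

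Pitx1, the homeodomain factor that gives the hindlimb its identity and also acts in the pituitary, was near the median of the arrays. It was 5.49 and 5.42 in the knockout clones, 6.03 and 5.81 in the knockdown clones, and 5.38, 5.42 and 5.49 in the wild-type clones. Here the knockdown clones were the higher pair, and neither overlapped the other groups, while knockout and wild-type clones overlapped. Knockdown was 0.49 ± 0.0909 (SE) from wild type, a 1.41-fold higher signal, and knockout was 0.02 ± 0.0909 (SE) from wild type.

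Zic1 encodes a zinc finger factor of the dorsal neural tube, cerebellum and dorsal somites. Its signal was 3.96 and 7.21 in the knockout clones, 4.12 and 4.05 in the knockdown clones, and 3.83, 4.12 and 4.09 in the wild-type clones. Knockout clone 2 alone was high, and the other 6 arrays lay between 3.83 and 4.12, near the 25th percentile of the arrays. The gap of 3.25 between the knockout clones was matched by 20 other tested genes (0.119%). The fitted difference of 1.57 ± 0.859 (SE) between knockout and wild type therefore rests on 1 array: it was -0.05 without knockout clone 2 and 3.20 without knockout clone 1. Knockout clone 2 is also the array with high Xist and low Y-linked signal, and the part of this in the Zic1 value was not tested.

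The Zic1 promoter is shown because its window holds the only TGATNNAT match among the 5 windows, on the minus strand of the window at positions 177 to 184 of 300, in capitals.
Zic1 (chr9:91365719-91366018, minus strand): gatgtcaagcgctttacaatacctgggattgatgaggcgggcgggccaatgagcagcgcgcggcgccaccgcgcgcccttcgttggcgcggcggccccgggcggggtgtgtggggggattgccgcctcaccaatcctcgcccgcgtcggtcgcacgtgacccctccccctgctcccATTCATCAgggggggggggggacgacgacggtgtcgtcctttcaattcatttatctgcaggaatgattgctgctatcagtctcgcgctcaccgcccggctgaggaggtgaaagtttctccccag
Its GC content was 65.3%, with 31 CpG dinucleotides. Zic4, which overlaps Zic1 on the chromosome, was 4.88 and 4.46 in the knockout clones, 4.86 and 4.84 in the knockdown clones, and 4.70, 4.84 and 4.87 in the wild-type clones. All of these Zic4 values lay below the median of their array. On the probe set read, that of highest mean, Zic4 was not high on the array where Zic1 was. Signal of any other Zic4 probe set is not given per array here.

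Foxd1, a forkhead factor of kidney stroma progenitors and of the ventral temporal retina, varied widely within every group. Its signal was 5.70 and 6.95 in the knockout clones, 7.26 and 8.98 in the knockdown clones, and 5.37, 6.90 and 5.62 in the wild-type clones. Both knockdown clones lay above all others, but knockdown clone 1 lay close to knockout clone 2 and to wild-type clone 2. The clones of a group differed by 1.25 in knockout, 1.72 in knockdown and 1.52 in wild type, and 1.42%, 0.351% and 0.952% of tested genes had a range as wide in those groups. Knockdown was 2.16 ± 0.706 (SE) from wild type (4.47-fold higher), and that difference was 1.30 without knockdown clone 2 and 3.02 without knockdown clone 1. Knockout was 0.36 ± 0.706 (SE) from wild type, and -0.26 without knockout clone 2.

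The Foxd1 promoter is shown because its window holds the only TGACAG match among the 5, at positions 201 to 206 on the plus strand, in capitals.
Foxd1 (chr13:98353995-98354294, plus strand): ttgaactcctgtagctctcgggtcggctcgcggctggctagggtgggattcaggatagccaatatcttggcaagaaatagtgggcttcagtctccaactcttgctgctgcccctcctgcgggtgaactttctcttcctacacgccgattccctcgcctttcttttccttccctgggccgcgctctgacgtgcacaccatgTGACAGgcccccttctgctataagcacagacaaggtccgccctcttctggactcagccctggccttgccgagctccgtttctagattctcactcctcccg
The match is a description of letters and not evidence of a bound site.

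Mab21l1 is a member of the male abnormal 21 family, required in the mouse for the lens and the preputial gland. Its signal was 5.23 and 4.75 in the knockout clones, 7.60 and 7.93 in the knockdown clones, and 7.32, 7.50 and 7.15 in the wild-type clones. Both knockout clones lay more than 1 log2 unit below every other array, and below the median of their own arrays. Group means were 4.99 ± 0.337 in knockout (SD, n = 2), 7.76 ± 0.231 in knockdown (SD, n = 2) and 7.33 ± 0.175 in wild-type cells (SD, n = 3). Knockout was -2.34 ± 0.188 (SE) from wild type, a 5.06-fold lower signal, and -2.77 ± 0.206 (SE) from knockdown, a 6.84-fold lower signal. Knockdown was 0.44 ± 0.188 (SE) from wild type, a 1.35-fold higher signal, and its clones did not overlap the wild-type clones.

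Mab21l2, which acts in the eye and ventral body wall of the mouse, lay below the array median on 6 of the 7 arrays. Its signal was 4.86 and 4.81 in the knockout clones, 5.09 and 4.93 in the knockdown clones, and 6.56, 5.07 and 5.36 in the wild-type clones. Wild-type clone 1 was the high array, and the wild-type range of 1.49 was matched by 1.03% of tested genes. Knockout was -0.83 ± 0.421 (SE) and knockdown -0.66 ± 0.421 (SE) from wild type, and these differences were -0.38 and -0.21 without wild-type clone 1. Sox2, a marker of neural cells, was also highest in wild-type clone 1, at 7.50 against 4.80 to 5.53 elsewhere. No other neural or glial marker measured was highest in that clone. Tubb3 and Map2 were at 6.39 and 6.23 there, and at 7.38 and 6.86 in wild-type clone 2. Of 9 neural and glial markers measured, Tubb3 and Mbp were above the array median on every array, and the mean of the list was 5.22 to 5.36 in knockout, 5.40 to 5.45 in knockdown and 5.32 to 5.54 in wild-type clones. The part of those markers in the Mab21l2 value was not tested.

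**Figure D2:**
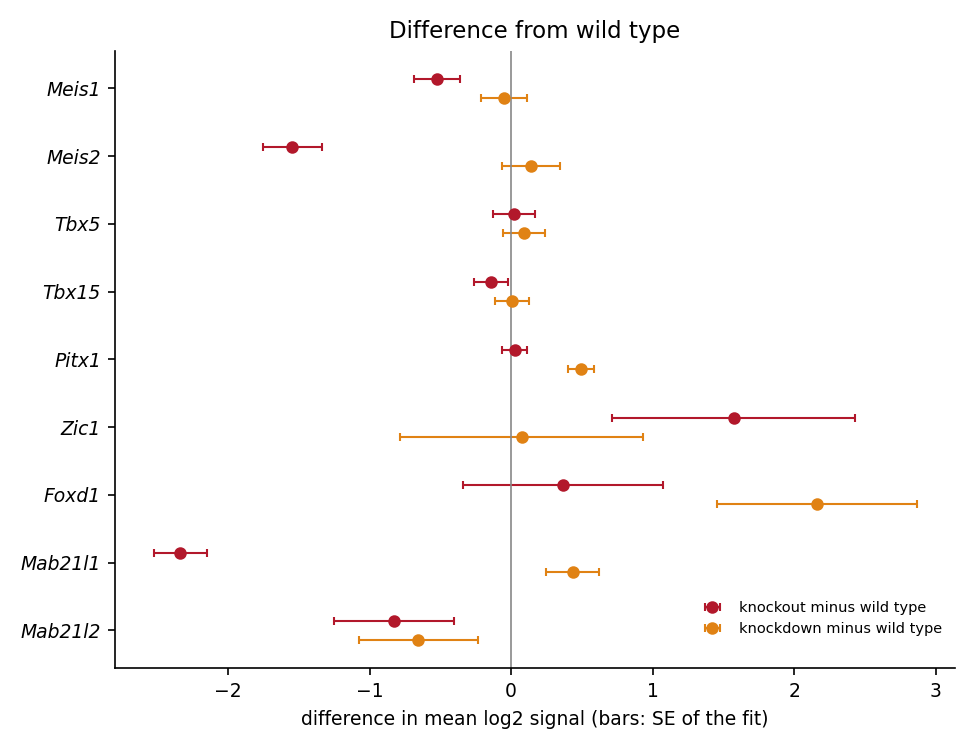
Difference in mean log2 signal from wild type for each of the 9 genes (horizontal axis, bars are the standard error of the fit). Mab21l1 and Meis2 lie furthest below 0 for knockout at -2.34 and -1.55, and Foxd1 lies furthest above 0 for knockdown at 2.16, with a wide bar.

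In the limma fit over all 16801 tested genes, the 9 genes were all tested, and those with a Benjamini-Hochberg adjusted p under 0.05 are said to be called. Between knockout and wild type 1 of the 9 was called, Mab21l1, where 28 genes (0.167%) were called in all. Between knockdown and wild type none of the 9 was called (0 of 9), where 3 genes (0.0179%) were called and 2371 had an unadjusted p under 0.05. Between knockout and knockdown 1 of the 9 was called, again Mab21l1, where 63 genes (0.375%) were called. Genes whose arrays did not overlap between the groups were counted instead, beside the share of all tested genes without overlap in either direction. Knockout was lower than wild type for 4 of 9 genes, Meis1, Meis2, Mab21l1 and Mab21l2, where that share was 28.5%. Knockdown was higher than wild type for 3 of 9, Pitx1, Foxd1 and Mab21l1, where it was 30.5%. Knockout was lower than knockdown for 6 of 9, all but Tbx5, Tbx15 and Zic1, where it was 45%. In each comparison 0 of the 9 were without overlap in the opposite direction. Both calls of Mab21l1 ended when any one of the wild-type or knockdown arrays was left out, with differences of -2.58 to -2.10 from wild type over all alternatives. Zic1 was called against both groups when knockout clone 1 was left out. Since the genes were selected on these values, nothing is read from these counts. Knockout and knockdown share their wild-type clones.

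Pbx proteins are the partners of Meis factors, and Pknox proteins are close relatives, so the other members of this group were set beside the Meis genes. The difference between knockout and wild type was 0.16 for Meis3, 0.18 for Pbx2, -0.27 for Pbx3, -0.11 for Pbx4 and 0.28 for Pknox2, and it was 0.001 for Pknox1. Between knockdown and wild type the differences were 0.40, 0.11, 0.30, 0.12, -0.23 and 0.04 for the same genes in that order. Without knockout clone 2, knockout was -0.12 from wild type for Meis3, -0.57 for Pbx3 and -0.14 for Pknox2. Without knockout clone 1 these differences were 0.43, 0.03 and 0.69. None of the 6 tested passed the test in either comparison (limma, 0 called and 0 at an unadjusted p under 0.05). Between knockout and knockdown 0 were called and 1, Pbx3, had an unadjusted p under 0.05 (limma). Its knockout clones lay below the knockdown clones without overlap, with a difference of -0.57 and an adjusted p of 0.213. Among the paralogues of the other genes, Tbx4, the hindlimb T-box factor, was -0.03 in knockout and 0.09 in knockdown relative to wild type. Pitx3, Zic2, Zic4, Zic5, Foxd2 and Foxd3 differed from wild type by -0.13 to 0.02 for knockout. The knockout difference of Zic4 was 0.08 without knockout clone 2 and -0.34 without knockout clone 1. For knockdown, the differences from wild type were 0.05 for Zic4, 0.15 to 0.18 for Pitx3, Zic5, Foxd2 and Foxd3, and 0.38 for Zic2. Zic2 signal lay below the median of every array. Its knockdown difference was 0.15 without knockdown clone 2 and 0.61 without knockdown clone 1. Mab21l3 was -0.33 in knockout and -0.21 in knockdown relative to wild type.

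Other regional factors were taken from lists of T-box, limb, trunk, craniofacial and Irx genes, together with those partners and paralogues 111 genes, of which 103 were tested. Tbx22 did not pass the filter on low signal, and 7 genes were not analysed here. None was called in any of the 3 comparisons (limma, 0 of 103 each). At an unadjusted p under 0.05 (limma), 4 were higher and 8 lower in knockout than in wild type. In knockdown, 9 were higher and 0 lower than in wild type. Between knockout and knockdown, 3 were higher and 13 lower in knockout. These are 12, 9 and 16 of the 103, beside 2156, 2371 and 3011 of all 16801 tested genes. In none of the 3 comparisons was the share larger among the related genes. The median difference over the 103 was -0.008 for knockout and 0.11 for knockdown relative to wild type, beside -0.03 and 0.03 over all tested genes. The limb factors were all on one side for knockdown: 22 of 22 tested were higher than in wild type. Their median was 0.17, beside a median absolute difference of 0.13 over all tested genes. Of these factors, 2 had an unadjusted p under 0.05 (limma). The count of limb factors higher in knockdown was 21 after quantile normalization, 20 after median centring, and 19 without wild-type clone 1 or without knockdown clone 2. Of 26 craniofacial factors 23 were higher in knockdown, but 16 without knockdown clone 2. Trunk factors were lower in knockout for 19 of 29, with a median of -0.08. The share of all tested genes on each side is not given here. Genes read on the same clones are not independent, so nothing is read from these counts of direction.

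By the smallest p, the related genes furthest from wild type in knockout were Nr2f1 and Pou3f3. Nr2f1, an orphan nuclear receptor of forebrain and neural crest, was 5.06 and 6.02 in the knockout clones, 9.35 and 8.05 in the knockdown clones, and 8.99, 8.89 and 8.64 in the wild-type clones. Both knockout clones were more than 2 log2 units below every other array, with a difference from wild type of -3.30 ± 0.439 (SE) and an adjusted p of 0.0686 by limma, above the threshold. Nr2f1 passed it with a stricter filter on low signal and after median centring. Knockout was -3.16 from knockdown, with an adjusted p of 0.0671. Pou3f3, a POU factor of brain and kidney, was 6.36 and 6.26 in the knockout clones, 7.9996 and 7.09 in the knockdown clones, and 8.64, 7.74 and 7.82 in the wild-type clones, and knockout was -1.75 ± 0.360 (SE) from wild type with an adjusted p of 0.140. For knockdown, the smallest p values belonged to the forkhead factor Foxc1, at 0.89 ± 0.223 (SE) with an adjusted p of 0.196, and to Irx4, a ventricular factor of the heart, at 0.30 ± 0.0757 (SE) with an adjusted p of 0.197. Between knockout and knockdown, Nr2f1 was joined by Foxc2, a forkhead factor of mesenchyme. Foxc2 was 8.58 and 7.61 in the knockout clones, 6.53 and 6.33 in the knockdown clones, and 6.60, 6.88 and 7.14 in the wild-type clones, and knockout was 1.66 from knockdown with an adjusted p of 0.105. Chosen after their values were seen, Sim1, Osr1, Twist2 and Tfap2a differed by -2.01, -1.23, -1.25 and -1.12 between knockout and wild type, and none was called. Foxc2 went the other way, with knockout 1.22 from wild type without overlap and an adjusted p of 0.198 by limma. The knockout clones differed widely for Tfap2a and Sim1. Tfap2a was 4.62 and 6.68 in the knockout clones, 6.68 and 6.92 in the knockdown clones, and 7.24, 6.55 and 6.53 in the wild-type clones, so its knockout difference rests on clone 1, and clone 2 overlapped wild type. Sim1 was 7.27 and 5.11 in the knockout clones, 4.93 and 7.70 in the knockdown clones, and 8.69, 8.11 and 7.78 in the wild-type clones. It was thus below wild type without overlap in both groups, by -2.01 in knockout and -1.88 in knockdown. Its knockdown clones differed widely too.

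**Figure D3:**
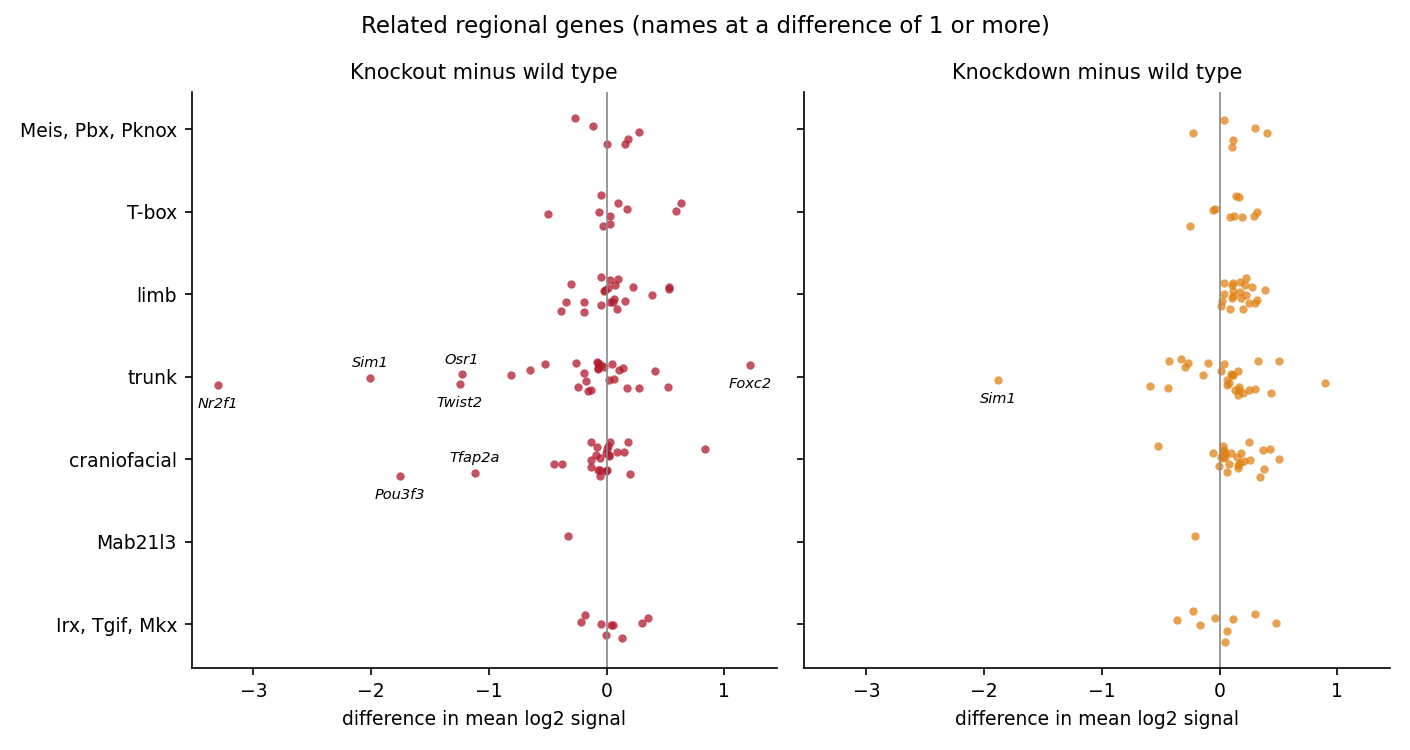
Difference in mean log2 signal from wild type (horizontal axis) for the 103 tested related genes, by list, in knockout (left) and knockdown (right). Genes that differ by 1 or more are named. Nr2f1 lies at -3.30 for knockout, and all 22 limb factors lie above 0 for knockdown.

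Mab21l1 and Mab21l2 each lie within a larger gene, so the genes that span them were read as well, a comparison chosen after the values were seen. Nbea, a large vesicle trafficking protein whose gene spans Mab21l1, was 8.14 and 7.56 in the knockout clones, 7.97 and 7.80 in the knockdown clones, and 8.17, 7.85 and 7.74 in the wild-type clones. The groups overlapped, and knockout was -0.07 ± 0.207 (SE) from wild type with an adjusted p of 0.910 by limma, beside -2.34 for Mab21l1. Lrba, a related protein whose gene spans Mab21l2, was 4.91 and 5.10 in the knockout clones, 5.34 and 4.63 in the knockdown clones, and 6.28, 5.60 and 5.37 in the wild-type clones. Lrba was highest in wild-type clone 1, the array where Mab21l2 was also highest, and knockout was -0.75 ± 0.317 (SE) from wild type with an adjusted p of 0.400. Over all neighbours of the 9 genes, 17 of 20 measured were tested and none was called in any comparison (limma). At an unadjusted p under 0.05 were 3 for knockout against wild type, 1 for knockdown against wild type and 2 for knockout against knockdown. Among all 16801 tested genes these counts were 2156, 2371 and 3011. Tbx3, a T-box factor next to Tbx5, was 7.29 and 6.80 in the knockout clones, 6.67 and 6.72 in the knockdown clones, and 6.22, 6.25 and 6.76 in the wild-type clones, and knockout was 0.63 ± 0.216 (SE) from wild type with an adjusted p of 0.321. Rbm19, on the other side of Tbx5, was 7.25 and 7.57 in the knockout clones, 7.26 and 7.45 in the knockdown clones, and 8.25, 7.86 and 7.91 in the wild-type clones. Its signal was lower than in wild type in both groups without overlap, with differences of -0.59 ± 0.160 (SE) in knockout and -0.65 ± 0.160 (SE) in knockdown and adjusted p of 0.223 and 0.196, above the threshold.

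**Figure D4:**
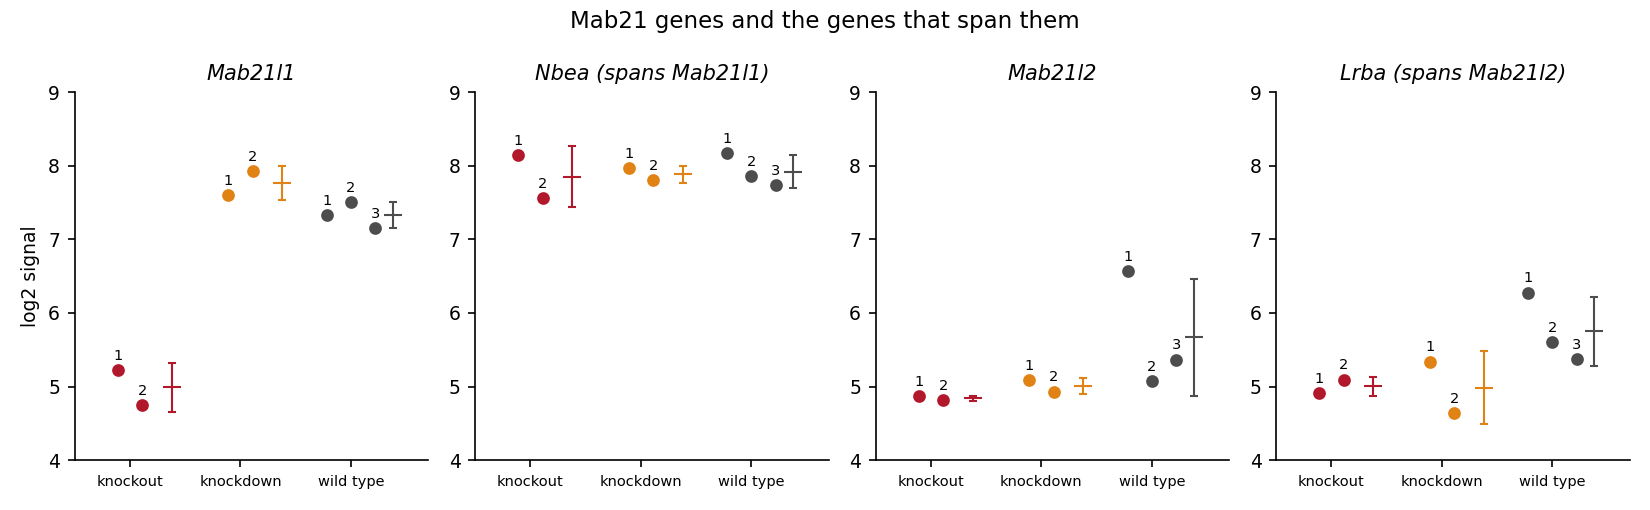
Log2 signal (vertical axis) of Mab21l1 and Mab21l2 and of the genes that span them, Nbea and Lrba, in knockout, knockdown and wild-type clones. Points are single arrays and crosses with bars the group mean ± SD. The knockout clones are low for Mab21l1 and overlap the wild-type clones for Nbea, and wild-type clone 1 is the highest array for both Mab21l2 and Lrba.

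The genes with the most similar pattern were found for the 4 genes whose signal spanned at least 2 log2 units, by the root mean square difference between mean-centred profiles over the 7 arrays. Nearest to Meis2 was Ctnna2, a neuronal alpha-catenin, at 0.146 log2 units, followed by Car13, a carbonic anhydrase, at 0.268 and Mmp16, a membrane metalloproteinase, at 0.319. Ctnna2 was 4.96 and 4.84 in the knockout clones, 6.13 and 6.51 in the knockdown clones, and 6.00, 6.81 and 6.00 in the wild-type clones. Nearest to Mab21l1 was Mr1, an MHC class I-like molecule, at 0.214, then Car13 at 0.437 and Meis2 at 0.445. Mr1 was 5.58 and 4.81 in the knockout clones, 8.35 and 8.45 in the knockdown clones, and 7.57, 7.74 and 7.35 in the wild-type clones. Car13 and Meis2 thus stood near Mab21l1 through the same low knockout clones. Nearest to Zic1 were Lipo3 at 0.213, Cyp4a12b at 0.258 and Smoc1, a matricellular protein, at 0.272, each high on knockout clone 2 alone, at 7.10, 7.12 and 7.15. Nearest to Foxd1 were Lrrc17 at 0.365, C1qtnf6 at 0.466 and Phyh, a peroxisomal enzyme, at 0.495. With 7 arrays in 3 groups, genes that follow the same group difference or the same array are alike by this measure.

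**Figure D5:**
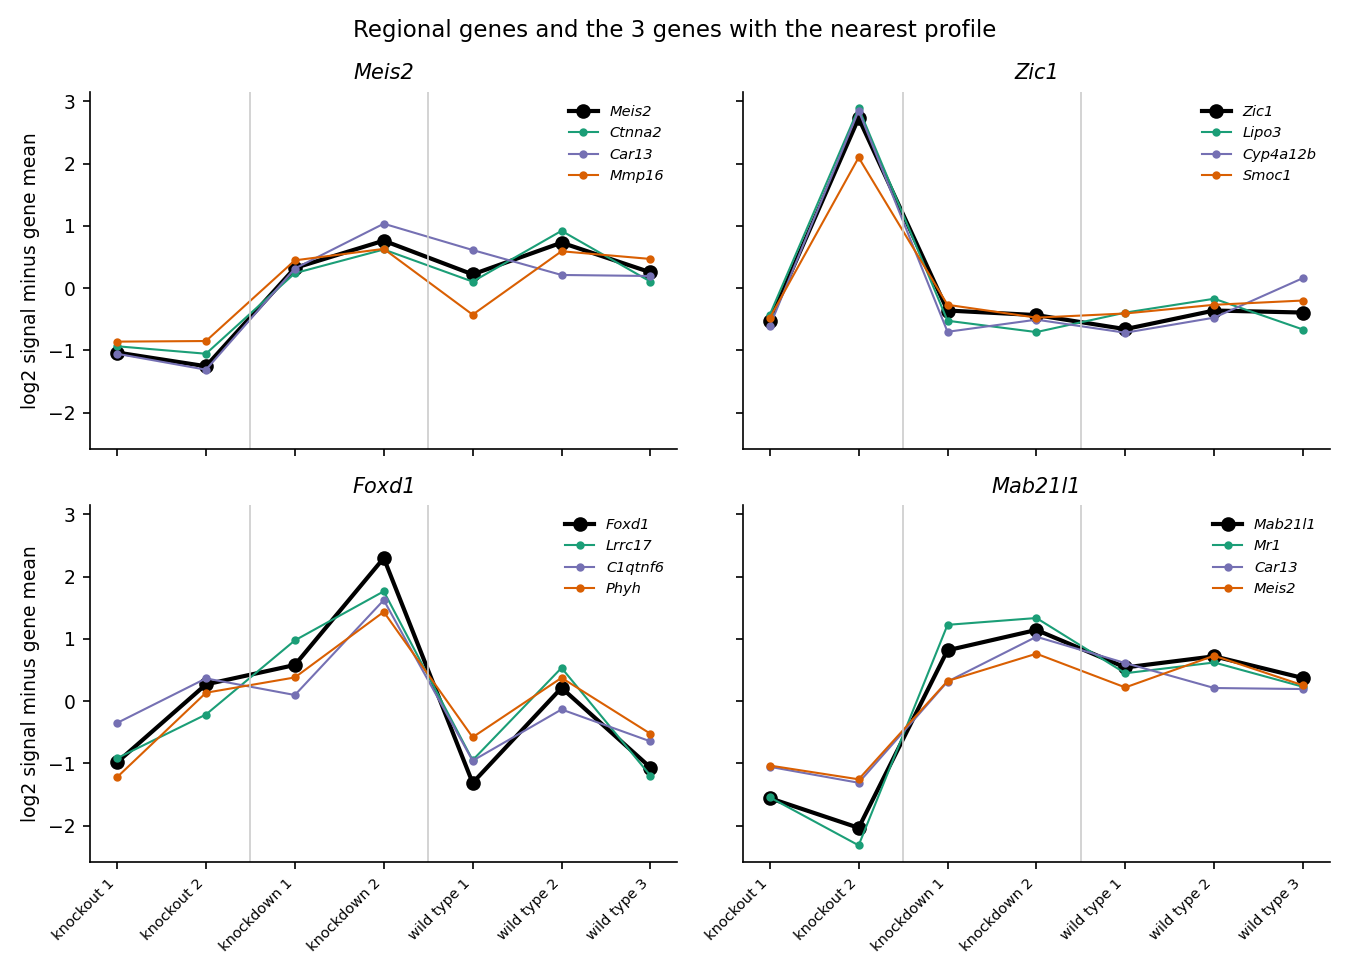
Log2 signal minus the mean of the gene (vertical axis) over the 7 arrays for Meis2, Zic1, Foxd1 and Mab21l1, each with the 3 tested genes of nearest profile. Meis2 and Mab21l1 and their nearest genes are low in both knockout clones, and Zic1 and its nearest genes are high on knockout clone 2.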

How the data were processed

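The deposited table holds log2 signal values per probe set, 1 column per array, and all 7 columns were used. Per the submitters' processing notes, the authors used the affy package in R 2.8.0. How they summarised, background-corrected and normalized the probes, and on which genome build, is not given in the labels or notes. That the deposited values are log2 was inferred from their range of 1.81 to 13.7. Medians of the 7 arrays were 5.38 to 5.49, and pairs of arrays correlated at 0.979 to 0.990. For arrays, the number of clones limits the precision.

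Of 34760 probe sets, 21640 had a single gene symbol in the platform annotation, covering 19937 genes; the probe set with the highest mean stood for a gene. Genes above the 25th percentile on at least 2 arrays were tested (16801). A mean per group was fitted with limma 3.58.1 in R 4.3.3 (lmFit, eBayes, two-sided; 4 residual and 2.06 prior degrees of freedom), and p-values were adjusted by Benjamini-Hochberg within each comparison. The steps were tested on simulated data. The 9 genes, the lists and the tests were chosen with earlier results of these data known. Named related genes were all Meis, Pbx and Pknox relatives, the paralogues, and the 2 of smallest p in each comparison where none was called. Alternatives were the filter, normalization, variance model, array weights, probe set rule, replicate number as a block and leaving out arrays.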

Additional observations from a re-analysis of the deposited data

Results flagged for a closer look

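Mab21l1 stood out because the knockout and knockdown effects differed: the knockout effect minus the knockdown effect was -2.77 on the log2 scale, which is the knockout against knockdown comparison. Mab21l1 was among the 63 genes (0.375%) called there by limma. It was selected with these values known, so this is a description. The call was kept under 9 of 16 alternatives, and the difference ranged from -3.01 to -2.37.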

How the results depend on the processing

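The counts of genes called moved with the processing, and the knockout differences of Mab21l1, Meis2, Meis1 and Mab21l2 from wild type kept their direction. For knockout against wild type, the 28 genes became 79 with a stricter filter, 45 after quantile normalization, 71 after median centring (61 higher and 10 lower, beside 20 and 8), 2 with the replicate block and 1 without both deficient arrays numbered 2. For knockdown against wild type, the 3 genes became 0 with the replicate block and without both of those arrays. For knockout against knockdown, the 63 genes became 38 with no filter, 111 with a stricter filter, 100 after quantile normalization, 137 after median centring, 26 with a mean-variance trend, 18 with array weights, 2 with the replicate block and 0 without both of those arrays. Leaving out 1 array gave 3 to 77, 0 to 0 and 0 to 111 genes in these comparisons. Where the knockdown count was 0, 1618 to 2617 genes had an unadjusted p under 0.05, and 2572 to 3096 where the knockout against knockdown count was 0 (limma).

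Among the related genes, 1 was called for knockout against wild type with a stricter filter and after median centring, and 1 for knockout against knockdown with a stricter filter, Nr2f1 each time. Leaving out 1 array gave 0 to 1, 0 to 0 and 0 to 2, with Osr1 and Pbx3 called without knockout clone 2. Other alternatives called none.

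Mab21l1 was called for knockout against wild type under 9 of 16 alternatives. The call was lost with the replicate block, without any one of the wild-type or knockdown arrays, and without both deficient arrays numbered 2, with a difference of -2.58 to -2.10 throughout. Meis2 ranged from -1.69 to -1.38 and Meis1 from -0.65 to -0.39. Meis2 was called for knockout against wild type under 1 of 16 alternatives, the stricter filter, and for knockout against knockdown under 3, the stricter filter, quantile normalization and median centring. Zic1 was called in both without knockout clone 1, where its difference from wild type was 3.20, and it was -0.05 without knockout clone 2. Of 423 values for the 9 genes, 30 in 12 results took the opposite sign, among them the knockout differences of Tbx5, Tbx15, Zic1 and Foxd1. The counts of limb, trunk and craniofacial factors under the alternatives were added after values were seen.

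The replicate numbers pair nothing in the labels. Wild-type clone 3 is the only array numbered 3, so the replicate block in effect leaves it out of the differences. The median differences from wild type over all tested genes were the same with the block as without that clone, at -0.01 for knockout and 0.04 for knockdown. Deviations from the group mean correlated at -0.074 to 0.199 between same-numbered clones and at -0.211 to 0.211 between differently numbered clones. In a group of 2 clones the deviations mirror each other, so these values cannot show whether same-numbered clones share more than a number. The cause of the changes with the processing was not tested.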
